A study of Mus musculus with 6 samples.

Results

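The kallikrein-related peptidase genes *Klk5* to *Klk14* are 10 of the 47643 genes counted in mouse submandibular salivary gland organoids (mSGOs), structures that grow in Matrigel from dissociated cells of the adult gland. They were taken by name as the epithelial genes of the kallikrein cluster on chromosome 7, and they were chosen because of their difference between day 5 and day 7 of culture. That difference is therefore given for them as a description, with no test. The study collected mSGOs from 3 mice at both days, which gave 6 libraries, 3 per day, and asked how 5-day-old and 7-day-old organoids differ. Both groups were untreated and not irradiated and came from female C57BL/6 mice of 8 to 12 weeks, and libraries with the same number came from the same mouse. All organoids were kept in WRY medium, which holds EGF, FGF2, N2, insulin, dexamethasone, the ROCK inhibitor Y27632 and medium conditioned with R-spondin1 and Wnt3a. Libraries were made from polyadenylated RNA with a kit that reads transcripts at their 3′ end. Longer transcripts therefore give no more reads than short ones. CPM, a gene's count times 1000000 over the scaled library size, is set side by side between genes on this ground. Such comparison is less certain for genes whose 3′ end matches another gene, such as *Klk14* and *Klk9*, as given below.

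Kallikreins are secreted serine proteases that are made as inactive proenzymes and switched on by removal of a short propeptide, often by another kallikrein. In the outer layers of stratified epithelia they cut the proteins that hold cornified cells together, and inhibitors such as LEKTI, the product of *Spink5*, keep them in check. *Klk5*, *Klk7* and *Klk14* are the members best known for this role in skin. The same locus holds the glandular kallikreins, *Klk1* and the *Klk1b* genes, which the granular ducts of the rodent submandibular gland secrete, above all in males.

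All 10 genes lie on the plus strand of chromosome 7 within 160.764 kb (GRCm39, 43339842 to 43500605), in the order *Klk14*, *Klk13*, *Klk12*, *Klk11*, *Klk10*, *Klk9*, *Klk8*, *Klk7*, *Klk6*, *Klk5*. The sequence just before the gene start is shown for *Klk14*, *Klk10*, *Klk9* and *Klk8*. *Klk8* is the member already abundant at day 5, and the others are members of the cluster that it is set against below. The bases are the upstream part of RefSeq promoter windows (table build GRCm38.p6), located in GRCm39 by exact match, on the plus strand, 5′ to 3′, and end at the GENCODE gene start. Capitals mark each CG, the dinucleotide that can carry CpG methylation.
Klk14 (chr7:43339592-43339841): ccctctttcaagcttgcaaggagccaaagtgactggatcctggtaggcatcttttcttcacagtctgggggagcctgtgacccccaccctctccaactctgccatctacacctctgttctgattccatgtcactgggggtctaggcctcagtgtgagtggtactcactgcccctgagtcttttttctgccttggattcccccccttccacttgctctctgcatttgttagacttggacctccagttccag
Klk10 (chr7:43430228-43430447): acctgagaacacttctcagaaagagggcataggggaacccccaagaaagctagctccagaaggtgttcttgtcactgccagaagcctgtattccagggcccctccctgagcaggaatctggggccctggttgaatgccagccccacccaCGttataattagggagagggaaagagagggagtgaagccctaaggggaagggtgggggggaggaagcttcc
Klk9 (chr7:43441065-43441314): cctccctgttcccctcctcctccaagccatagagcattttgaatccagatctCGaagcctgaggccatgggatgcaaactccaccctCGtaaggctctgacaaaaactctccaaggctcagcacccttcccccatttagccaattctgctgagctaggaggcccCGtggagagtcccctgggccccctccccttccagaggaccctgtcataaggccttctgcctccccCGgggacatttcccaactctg
Klk8 (chr7:43446751-43446968): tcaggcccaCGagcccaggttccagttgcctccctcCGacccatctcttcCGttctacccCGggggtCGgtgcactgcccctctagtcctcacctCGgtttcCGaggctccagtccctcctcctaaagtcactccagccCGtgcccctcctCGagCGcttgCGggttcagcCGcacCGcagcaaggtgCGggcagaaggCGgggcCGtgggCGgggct
RefSeq windows matched 10 of the 10 genes, with 12 windows in all. The *Klk5* window, the *Klk6* window from 43474624 and the *Klk11* window from 43425503 lay wholly past the GENCODE gene start. The *Klk12* window had only 47 and the *Klk13* window only 71 of 250 bases before that start. The counts that follow are of RefSeq windows, and not all of their bases are upstream sequence by GENCODE. Over the 250 bases upstream of the RefSeq start, the *Klk8* window held 18 CG, the *Klk14* window 0, the *Klk10* window 2 and the *Klk9* window 4. The median of all 32851 windows of this length was 6. The ratio of observed to expected CG was 0.70 for *Klk8*, above that of 73.2% of all windows, while the windows of the other 9 genes lay at or under the 49.5th percentile. A KLF-type motif, CCNCNCCC on either strand, was found in 9 of the 12 windows and in 45.9% of all windows. The 12 windows held 50.4% to 65.2% G and C, against a median of 52.4% over all windows. The part of this base content in the motif matches was not tested. The AP-1 motif TGANTCA, the TATA motif TATAAA and the GRHL motif AACNGGTT were each found in 0 of the 12, against 6.75%, 12.4% and 1.79% of all windows. These motifs were picked with the expression values known, and a match describes letters only.

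Libraries held 1918198 to 2652710 counts in genes at day 5 and 2154261 to 2837397 at day 7. A limit of 3 counts, used here for a count of 0, came to 1.04 to 1.51 CPM. Entries that name no gene took 13.7% to 14.4% of reads in the day 5 libraries and 9.12% to 9.74% in the day 7 libraries. Of 17 salivary epithelium markers only *Sox10* was at 0 in every library, and their summed level was 13576 to 18915 CPM, most of it from *Krt5* and *Krt14*. Acinar and secretory markers were low, with 47.7 to 77.1 CPM at day 5 and 62.1 to 192 at day 7 over 16 genes. Of these *Bpifa2*, *Lpo*, *Dcpp1*, *Smr2* and 3 others were at 0. Most of the sum was *Slc12a2*, at 38.2 to 62.7 CPM at day 5 and 49.5 to 155 CPM at day 7. Of 20 squamous differentiation markers, 14 rose and 0 fell in the edgeR comparison across 15792 genes, of which 7.22% were higher at day 7 (adjusted p under 0.05 with an absolute log2 fold change over 0.6). Their summed level went from 3925 to 6173 CPM at day 5 to 7407 to 13030 CPM at day 7. Most of the day 5 sum was *Krt6a*, at 2387, 3744 and 2674 CPM. It was at 5098, 4136 and 3675 CPM at day 7 and did not pass (edgeR adjusted p = 0.102). In the same comparison 16 salivary epithelium markers were tested, and 6 rose, *Krt8* fell and 9 did not pass. Those that rose were *Krt15*, *Krt19*, *Cldn3*, *Cldn4*, *Elf3* and *Elf5*. Of these, *Elf5* had 0 counts at day 5 and 9, 10 and 7 at day 7, and passed the filter on low counts only through day 7. Over all genes tested 7.22% were higher and 4.82% lower. Of 8 secretory markers tested, *Pip* rose and *Egf* fell, both on few reads. *Pip* had 0, 2 and 1 counts at day 5 and 1, 24 and 21 at day 7, so the days overlapped. *Egf* had 3, 1 and 5 counts at day 5 and 0 at day 7 (edgeR adjusted p = 0.0499). The gene lists were chosen with earlier results of these data known, so the numbers of markers that rose or fell are a description. Macrophage markers (8.03 to 13.9 CPM, mostly *Cd14* and *Cd68*, with 8 of 12 at 0) were low in both days. Of the 2 tested, *Cd14* did not pass and *Cd68* rose, from 4, 2 and 1 counts to 8, 17 and 14 (edgeR adjusted p = 0.0151). Endothelial markers (12.4 to 29.9 CPM, mostly *Egfl7*, with *Cdh5* and *Tek* at 0) were low too. The same held for fibroblast markers (63.3 to 128 CPM, almost wholly *Vim*, with *Col1a2*, *Col3a1*, *Lum* and *Mfap5* at 0) and erythroid markers (at most 0.49 CPM). The part of the unassigned reads and of the squamous markers in the kallikrein values was not tested.

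*Klk8* made up nearly all reads of the 10 genes at day 5, and at day 7 it was joined by *Klk14*, *Klk13*, *Klk10* and *Klk9*. The summed level of the 10 genes was 42.1, 42.2 and 46.5 CPM in the day 5 libraries of mice 1, 2 and 3. It was 328, 550 and 271 CPM in the day 7 libraries. The means were 43.6 ± 2.51 and 383 ± 148 CPM (SD, n = 3), a ratio of 8.79. Without *Klk8* the sums were 3.30, 4.52 and 2.88 CPM at day 5, from 25 counts in all, and 237, 448 and 142 CPM at day 7, from 2200 counts. In bulk RNA, fewer cells that make a transcript and less RNA per cell cannot be told apart.

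Of the 10 genes, 9 entered the comparison across all genes and 8 were past its threshold, each higher at day 7, where 7.22% of the 15792 genes tested were higher, 4.82% were lower and 12.0% were past the threshold in either direction. Since the genes were picked on this contrast, that count says nothing further about them. *Klk6*, *Klk9*, *Klk12* and *Klk14* had 0 counts at day 5 and passed the filter on low counts only through day 7, and *Klk7* and *Klk11* had 1 count each at day 5. *Klk6* was not past the threshold. *Klk11*, the weakest of the 8, dropped out with mouse as a block, with DESeq2, and without any single day 5 library or without day 7 mouse 2, which left 7, and *Klk14* dropped out with robust = TRUE. Every day 7 value lay above every day 5 value for 9 of the 10 genes, a pattern found in 15.4% of all genes tested, while 30.9% had no overlap in either direction.

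**Figure D1:**
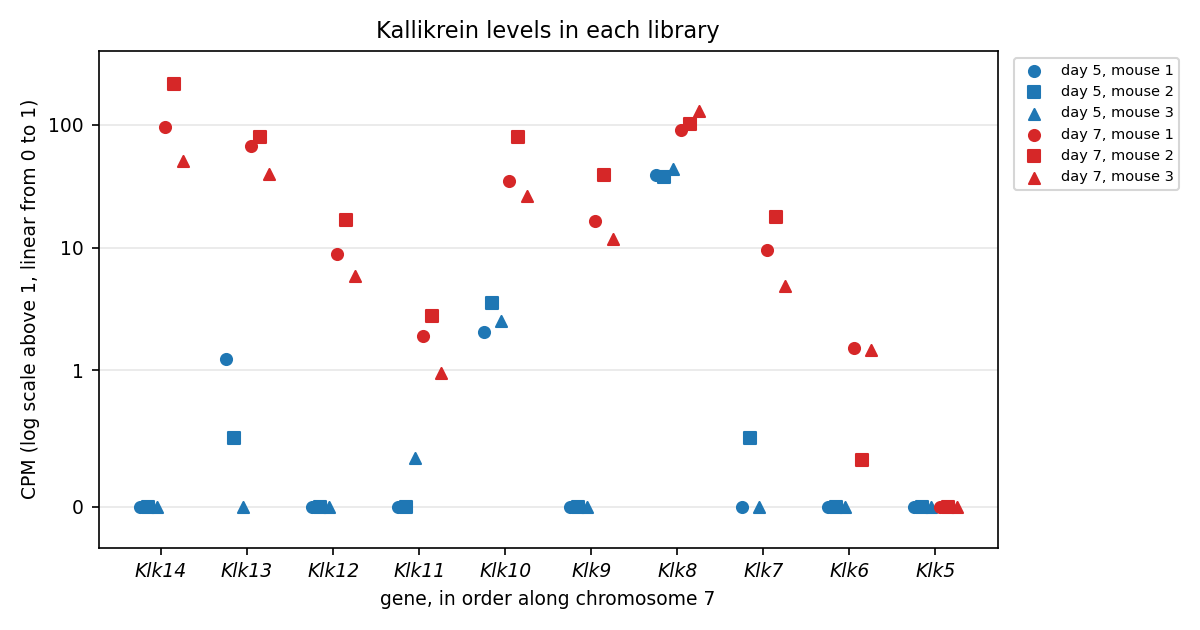
CPM of each kallikrein in each library (log scale above 1, linear from 0 to 1), in gene order along the chromosome; blue is day 5, red is day 7 and the marker shape is the mouse. *Klk8* lies near 40.0 CPM at day 5 and near 107 CPM at day 7, the other genes lie at or under 3.51 CPM at day 5, and *Klk5* is at 0 throughout.

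Among the members of the skin desquamation cascade, *Klk14* stood highest, *Klk7* was low and *Klk5* had no read. *Klk14* (ENSMUSG00000044737) encodes a trypsin-like protease that cuts desmosomal proteins and activates other proenzymes. It had 0 counts in each day 5 library and 252, 613 and 104 counts in the day 7 libraries, which is 96.7, 213 and 50.9 CPM. The groups did not overlap, and the day 7 libraries differed among themselves by 4.18 times. The day 7 mean was 120 ± 83.5 CPM (SD, n = 3), at least 94.2-fold higher than the limit of 3 counts per day 5 library, and at least 57.9-fold higher without day 7 mouse 2.

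*Klk7* (ENSMUSG00000030713) encodes the chymotrypsin-like enzyme of the stratum corneum, which cuts corneodesmosin. Its counts were 0, 1 and 0 at day 5 and 25, 51 and 10 at day 7, or 9.59, 17.7 and 4.90 CPM. Even the lowest day 7 library was above the single day 5 read. The ratio of day 7 to day 5 on scaled depth was 82.1, with a 95% counting interval of 14.4 to 3281, and was 54.1 without day 7 mouse 2. *Klk5* (ENSMUSG00000074155), whose protease can activate both of the others in skin, had 0 counts in all 6 libraries. The limit of 3 counts stands for 1.51 CPM in the shallowest day 5 library and 1.47 CPM in the shallowest day 7 library. A low level could therefore not be detected at this depth.

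*Klk8* was the one kallikrein well above the counting limit at both days, and its day 7 level varied least between mice. *Klk8* (ENSMUSG00000064023) encodes neuropsin, a trypsin-like protease of the epidermis and the hippocampus. It stood at 38.8, 37.7 and 43.6 CPM in the day 5 libraries, from 94, 75 and 121 counts. In the day 7 libraries it stood at 90.1, 102 and 129 CPM, from 235, 294 and 263 counts. The groups did not overlap, and the day 7 level was 2.32, 2.71 and 2.95 times the day 5 level in mice 1, 2 and 3. The log2 fold change was 1.41 ± 0.21 (SE), from 40.0 ± 3.16 to 107 ± 19.8 CPM (SD, n = 3).

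*Klk10*, *Klk13* and *Klk9* were scarce or at 0 at day 5 and stood between 11.7 and 79.8 CPM at day 7. *Klk10* (ENSMUSG00000030693) encodes a kallikrein, first known as normal epithelial cell-specific 1, with little protease activity of its own. Its level was 2.06, 3.51 and 2.52 CPM at day 5 and 34.9, 79.8 and 26.4 CPM at day 7. This was 16.9, 22.7 and 10.5 times higher in mice 1, 2 and 3, with a log2 fold change of 4.14 ± 0.44 (SE). The ratio over all libraries was 18.8 and was 11.8 without day 7 mouse 2. *Klk10* was the only member besides *Klk8* with a count in every day 5 library.

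*Klk13* (ENSMUSG00000054046) encodes a trypsin-like protease of stratified mucosa. It had 3, 1 and 0 counts at day 5 and 176, 228 and 81 at day 7, or 67.5, 79.2 and 39.7 CPM. Its day 7 libraries lay within 2.00 times of each other, the narrowest range after that of *Klk8*. The ratio of day 7 to day 5 was 116, with a counting interval of 44.9 to 427. *Klk9* (ENSMUSG00000047884) encodes a protease predicted to be chymotrypsin-like. It had 0 counts at day 5 and 43, 112 and 24 counts at day 7, or 16.5, 38.9 and 11.7 CPM. The mean was 22.4 ± 14.5 CPM (SD, n = 3), at least 17.6-fold higher than at day 5, and at least 11.1-fold higher without day 7 mouse 2.

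*Klk12*, *Klk11* and *Klk6* were the least abundant of the genes with reads. *Klk12* (ENSMUSG00000044430), a trypsin-like protease gene, had 0 counts at day 5 and 8.82, 16.7 and 5.87 CPM at day 7, at least 8.20-fold higher. *Klk11* (ENSMUSG00000067616), also called hippostasin, had 0, 0 and 1 counts at day 5 and 5, 8 and 2 at day 7, and its ratio on scaled depth was 14.3 (counting interval 2.20 to 603). The width of that interval shows how little 16 reads can fix. *Klk6* (ENSMUSG00000050063), the gene of neurosin, a trypsin-like protease also found in the nervous system, had 0 counts at day 5 and 4, 1 and 3 at day 7. Its mean of 1.12 ± 0.67 CPM (SD, n = 3) lay under the day 5 counting limit, and no fold is given.

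At day 7 the order of mean levels was *Klk14*, *Klk8*, *Klk13*, *Klk10*, *Klk9*, *Klk7*, *Klk12*, *Klk11*, *Klk6* and *Klk5*. Several neighbours in this order did not differ beyond their spread. *Klk14* was above *Klk8* in mice 1 and 2 and below it in mouse 3. *Klk7* was above *Klk12* in mice 1 and 2 and below it in mouse 3, with means of 10.7 ± 6.48 and 10.5 ± 5.58 CPM (SD, n = 3). *Klk10* was below *Klk13* in mice 1 and 3 and level with it in mouse 2, at 79.8 and 79.2 CPM. *Klk9* lay below *Klk10*, and *Klk7* and *Klk12* below *Klk9*, in each of the 3 mice.

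**Figure D2:**
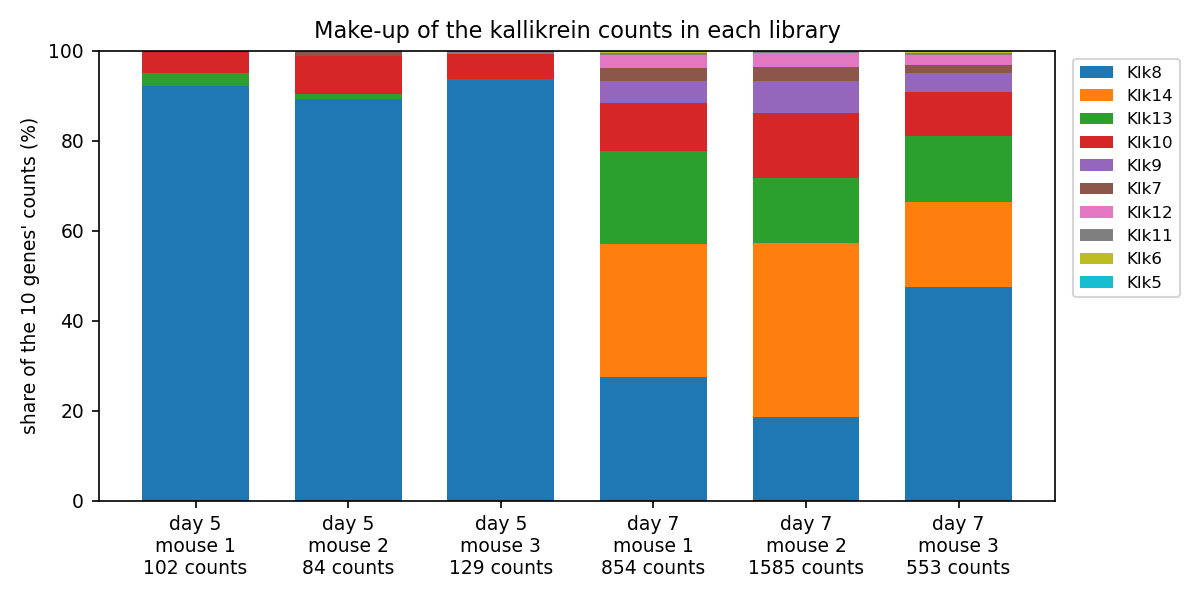
Share of each kallikrein in the counts of the 10 genes, in percent, 1 bar per library, with the total count under each bar. *Klk8* takes 89.3% to 93.8% of the bar at day 5, and 27.5%, 18.5% and 47.6% in mice 1, 2 and 3 at day 7.

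The make-up of the 10 genes' reads differed between the days. *Klk8* took 92.1% of the members' counts at day 5 (290 of 315, exact Clopper-Pearson 95% interval 88.5% to 94.8%) and 26.5% at day 7 (792 of 2992, 24.9% to 28.1%). These intervals cover counting error only. Across the day 7 libraries the *Klk8* share ran from 18.5% in mouse 2 (16.7% to 20.6%) to 47.6% in mouse 3 (43.3% to 51.8%), beyond the counting error of either. With *Klk8* set aside, mouse 2 stood apart in the 2 most abundant of the other 9 genes at day 7. *Klk14* held 47.5% of these counts in mouse 2 (44.7% to 50.2%), against 40.7% in mouse 1 (36.8% to 44.7%) and 35.9% in mouse 3 (30.3% to 41.7%), and the interval of mouse 2 overlapped neither of the others before rounding. *Klk13* held 17.7% in mouse 2 (15.6% to 19.9%), against 28.4% in mouse 1 (24.9% to 32.2%) and 27.9% in mouse 3 (22.8% to 33.5%). The shares of *Klk10*, at 14.7%, 17.8% and 18.6% in mice 1, 2 and 3, and of *Klk9*, at 6.95%, 8.68% and 8.28%, had intervals that overlapped.

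**Figure D3:**
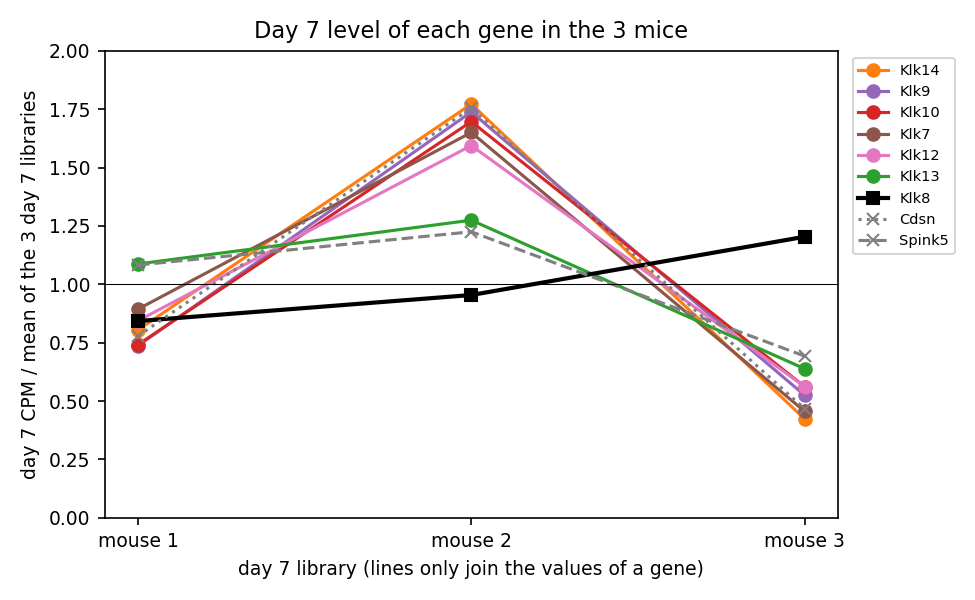
Level of each gene in the 3 day 7 libraries, as CPM divided by the gene's mean over these libraries; lines only join the values of a gene. *Klk14*, *Klk9*, *Klk10*, *Klk7* and *Klk12* peak in mouse 2 at 1.59 to 1.77 and are at 0.42 to 0.56 in mouse 3, *Klk13* runs from 1.27 to 0.64, and *Klk8* alone is highest in mouse 3 at 1.20.

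Within day 7, *Klk8* followed another order over the mice than the other members with enough reads to order. *Klk7*, *Klk9*, *Klk10*, *Klk12*, *Klk13* and *Klk14* were each highest in mouse 2, next in mouse 1 and lowest in mouse 3. *Klk8* was highest in mouse 3 and lowest in mouse 1, with a coefficient of variation of 18.5% against 69.5% for *Klk14* and 32.7% for *Klk13*. *Klk6*, at 4, 1 and 3 counts, and *Klk11*, at 5, 8 and 2, were too scarce to order. *Cdsn*, the gene of corneodesmosin, also ran from mouse 2 (42.4 CPM) over mouse 1 (18.8 CPM) to mouse 3 (11.3 CPM). Of the 20 squamous markers, 6 ran in this order too (*Krt13*, *Sprr1a*, *Sprr3*, *Cnfn*, *Calml3* and *Lypd3*), 8 ran from mouse 1 over mouse 2 to mouse 3 and 6 in other orders. Their sum was 13030, 10807 and 7407 CPM in mice 1, 2 and 3, of which the stress keratins *Krt6a* and *Krt6b* made up 8067, 5539 and 4267 CPM, and the other 18 markers summed to 4963, 5268 and 3140 CPM. With 3 mice these orders are a description.

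**Figure D4:**
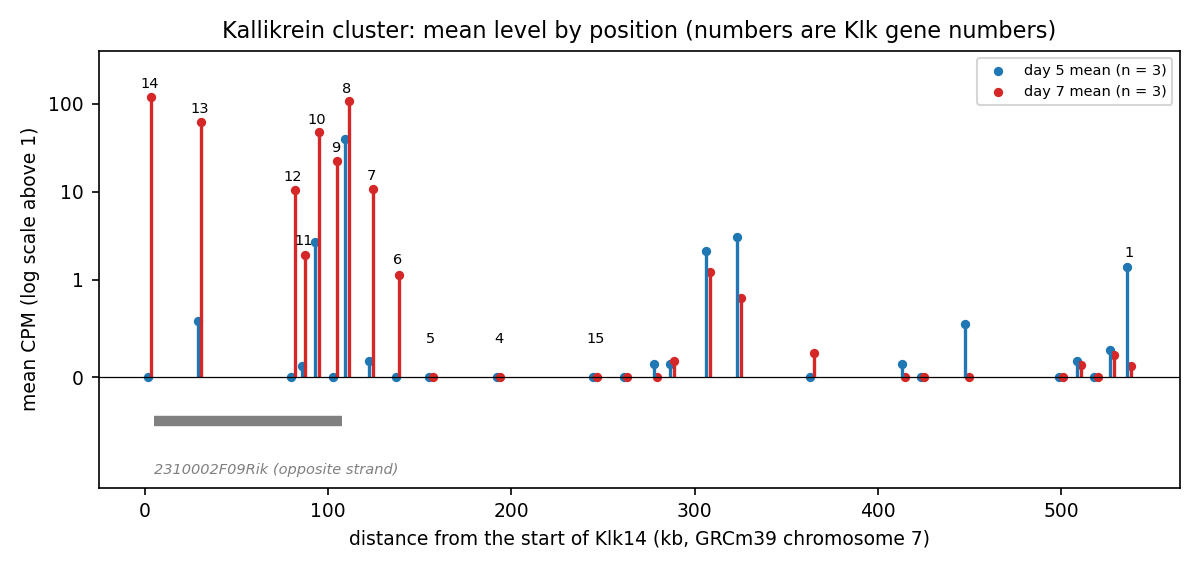
Mean CPM (n = 3 libraries per day, log scale above 1) of the kallikrein genes against distance from the start of *Klk14* in kb; labels are Klk gene numbers and the grey bar is the antisense gene *2310002F09Rik*. Levels of 10.5 CPM or more at day 7 lie between *Klk14* and *Klk7*, with *Klk11* at 1.89 CPM among them, and the kallikreins past *Klk7* stay at or under 3.04 CPM.

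No kallikrein past *Klk7* in the locus had a mean level above 3.04 CPM. After *Klk5*, the next genes *Klk4* and *Klk15* had 0 counts in every library, and the glandular kallikreins lie beyond them. Of 16 other kallikreins (14 glandular genes, *Klk4* and *Klk15*), 6 had no count, 7 were tested and 0 rose or fell by edgeR, with 0 at an unadjusted p under 0.05 and 0 by DESeq2. The median log2 fold change of the 7 was -0.07, against -0.0073 over all genes tested. Without a filter on low counts 1 gene, *Klk1b26*, fell (edgeR adjusted p = 0.0475, range over 13 alternatives 0.0475 to 0.866).

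Most reads of the glandular kallikreins came from 1 library. Their sum was 21.4, 2.01 and 0.36 CPM in the day 5 libraries, from 52, 4 and 1 counts, and 0.77, 3.12 and 4.90 CPM in the day 7 libraries. *Klk1b26* had 20, 1 and 1 counts at day 5 and 0, 0 and 5 at day 7. *Klk1b11* had 13, 2 and 0 counts and then 0, 5 and 4. *Klk1*, the gene of tissue kallikrein, which releases kinins from kininogen, had 10, 0 and 0 counts and then 0, 1 and 0. Among these 3 genes day 5 mouse 1 was the highest library each time, and the log2 fold changes of -2.08 for *Klk1b26* and -0.78 for *Klk1b11* turned to 0.64 and 1.38 without it. The *Klk1b* genes are close copies of each other, so single genes of the group are uncertain.

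On the other side, *Ctu1* (7.84 ± 0.60 and 6.84 ± 0.69 CPM, SD, n = 3) was the nearest tested gene before *Klk14*. It encodes a tRNA-modifying enzyme and neither rose nor fell (edgeR adjusted p = 0.793). Within 500000 bases of the cluster 21 genes were tested, 2 rose and 0 fell, and the share that was higher is near the 7.22% over all genes tested. *Vsig10l* stood at 1.73 ± 0.68 CPM at day 5 and 9.03 ± 2.88 CPM at day 7 (SD, n = 3), which is 2.41 ± 0.47 (SE) on the log2 scale (edgeR adjusted p = 0.00218). The other was the long noncoding RNA *2310002F09Rik*, which runs antisense through the cluster from 43344633 to 43447425.

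*2310002F09Rik* shares exon bases with *Klk9* (1010), *Klk8* (457), *Klk14* (287) and *Klk11* (202). Its transcript matches all 500 last bases of *Klk9* and a run of 289 in the last 500 of *Klk14*. Its level was 8.29 ± 0.63 CPM at day 5 and 21.7 ± 6.94 at day 7 (SD, n = 3, log2 fold change 1.39 ± 0.31, edgeR adjusted p = 0.00607), with 19, 16 and 25 and then 68, 73 and 28 counts. Whether counting used strand is not stated, so reads from these shared bases may not be told apart from the antisense RNA. For *Klk9* and *Klk14* the shared bases reach the 3′ end, which the kit reads. The last 500 bases of *Klk8* matched no other gene over 50 bases or more. Those of *Klk11* matched only *Gm15824*, over 50 bases. The last 500 bases of *Klk14* also match transcripts of 346 genes over 50 bases or more, so its count is uncertain. *Klk10*, *Klk12* and *Klk13* share no exon with another gene and have no such match.

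Of 13 genes listed as protease inhibitors, 8 were tested, 5 rose, 0 fell and 3 did not pass. Over all genes tested 7.22% were higher. The median log2 fold change of the 8 was 1.86 against -0.0073 over all genes tested. Whether each listed gene acts on these kallikreins was not tested. This list and those of proteases and of substrates below were chosen with earlier results of these data known, so their counts are a description. *Spink5*, the gene of LEKTI, the main inhibitor of *Klk5*, *Klk7* and *Klk14* products in skin, stood at 127, 157 and 143 CPM at day 5 and 561, 635 and 359 CPM at day 7. The groups did not overlap (log2 fold change 1.87 ± 0.22, edgeR adjusted p = 2.01e-05). *Spink5* was thus well expressed at day 5, when *Klk5* and *Klk14* had no read and *Klk7* had 1.

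*Slpi*, a secreted inhibitor of leukocyte elastase and other serine proteases, rose from 121, 125 and 103 to 637, 482 and 140 CPM (edgeR adjusted p = 0.00184). It missed the threshold with robust = TRUE (adjusted p = 0.114, range over 15 alternatives 6.75e-16 to 0.114). The WAP-domain gene *Wfdc5* had 1, 0 and 0 counts and then 27, 46 and 22 (edgeR adjusted p = 1.29e-05). *Wfdc12*, another WAP-domain gene, had 0 counts at day 5 and 26, 22 and 5 at day 7, at least 5.24-fold higher (edgeR adjusted p = 0.000539). It passed the filter on low counts only through day 7. *Serpina3n*, a secreted serpin, had 1, 1 and 2 counts and then 5, 27 and 28 (edgeR adjusted p = 0.00245). The intracellular serpin *Serpinb6a*, at 166 ± 6.57 and 147 ± 9.61 CPM (SD, n = 3), did not pass (edgeR adjusted p = 0.595). *Serpinc1* and *Spink12* had at most 2 counts in any library, and *Spink6*, *Spink7*, *Serpina5*, *Serpina12* and *A2m* were at 0.

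Of 16 proteases and protease inhibitors that act with kallikreins at epithelial surfaces, 12 were tested, 4 rose and 0 fell, where 7.22% of all genes tested were higher, with a median log2 fold change of 0.61 against -0.0073 over all genes tested. The 3 listed genes of the *Tmprss11* group, which encode membrane-anchored serine proteases, rose. *Tmprss11e* lay between 10.3 and 11.9 CPM at day 5 and was at 85.9, 90.6 and 30.4 CPM at day 7, which is 2.64 ± 0.34 (SE) on the log2 scale (edgeR adjusted p = 5.27e-05). *Tmprss11d* rose by 1.84 ± 0.30 and *Tmprss11a* by 1.61 ± 0.26 on the log2 scale (edgeR adjusted p = 0.000465 and 0.00045). *Plat*, the tissue plasminogen activator gene, had 3 counts at day 5 and 37 at day 7 (edgeR adjusted p = 0.0106) and missed the threshold without day 5 mouse 1, day 5 mouse 2 or day 7 mouse 2. Matriptase (*St14*, 64.8 ± 3.82 and 70.1 ± 10.4 CPM), its inhibitor *Spint1* (48.0 ± 5.51 and 57.7 ± 14.3 CPM) and *Tmprss4* (37.3 ± 7.28 and 51.0 ± 11.2 CPM) did not pass (SD, n = 3, edgeR adjusted p = 0.785, 0.472 and 0.241).

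Of 27 substrates and receptors, 18 were tested, 6 rose and 0 fell, where 7.22% of all genes tested were higher. Their median log2 fold change was 1.50, or 1.28 with genes absent at day 5 set at their limit, against -0.0073 over all genes tested. As the list was chosen with earlier results of these data known, its count is a description. *Cdsn* and *Scnn1b*, both among the 6, had 0 counts at day 5 and passed the filter on low counts only through day 7. *Cdsn*, whose protein kallikreins cut when cornified cells are shed, had 0 counts at day 5 and 49, 122 and 23 counts at day 7. This was at least 18.9-fold higher (edgeR adjusted p = 1.5e-05), and at least 11.8-fold higher without day 7 mouse 2. *Cldn1*, a tight junction gene, went from 2.06, 1.51 and 3.96 to 42.2, 45.8 and 8.32 CPM, which is 3.62 ± 0.53 (SE) on the log2 scale (edgeR adjusted p = 0.000213). *Fn1*, which encodes fibronectin, went from 65.6, 44.7 and 67.7 to 146, 312 and 153 CPM, which is 1.78 ± 0.27 (SE) on the log2 scale (edgeR adjusted p = 0.000304). *Flg*, the filaggrin gene, a marker of the cornified layer, rose from 1 to 16 counts (edgeR adjusted p = 0.0335), and it lost this call with DESeq2, without day 5 mouse 1, day 5 mouse 3 or day 7 mouse 2, and with mouse as a block, where *Dsg1b* gained one. With filterByExpr or a mean count of 10 *Flg* was not among the genes called.

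Of the 3 listed subunits of the epithelial sodium channel, which proteases can activate, *Scnn1a* and *Scnn1b* were among the 6, and *Scnn1g*, with 1, 1 and 0 counts and then 7, 2 and 3, did not pass (edgeR adjusted p = 0.147). *Scnn1a* rose from 3.71, 3.51 and 5.40 to 8.44, 17.7 and 17.1 CPM (edgeR adjusted p = 0.00537), and missed the threshold without day 5 mouse 2 (adjusted p = 0.0511, range over 15 alternatives 9.04e-05 to 0.0511). *Scnn1b* had 0 counts and then 6, 8 and 3 (edgeR adjusted p = 0.00978), and missed it without day 7 mouse 2 (adjusted p = 0.0503, range over 13 alternatives 0.00176 to 0.0503). The desmosomal cadherins *Dsg2* (144 ± 1.71 and 182 ± 18.9 CPM) and *Dsg3* (111 ± 12.0 and 155 ± 10.8 CPM) and the receptor PAR2 (*F2rl1*, 29.6 ± 2.66 and 40.1 ± 8.33 CPM), which trypsin-like kallikreins can activate, did not pass (SD, n = 3, edgeR adjusted p = 0.258, 0.107 and 0.244). Without day 7 mouse 3 the number that rose was 11.

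**Figure D5:**
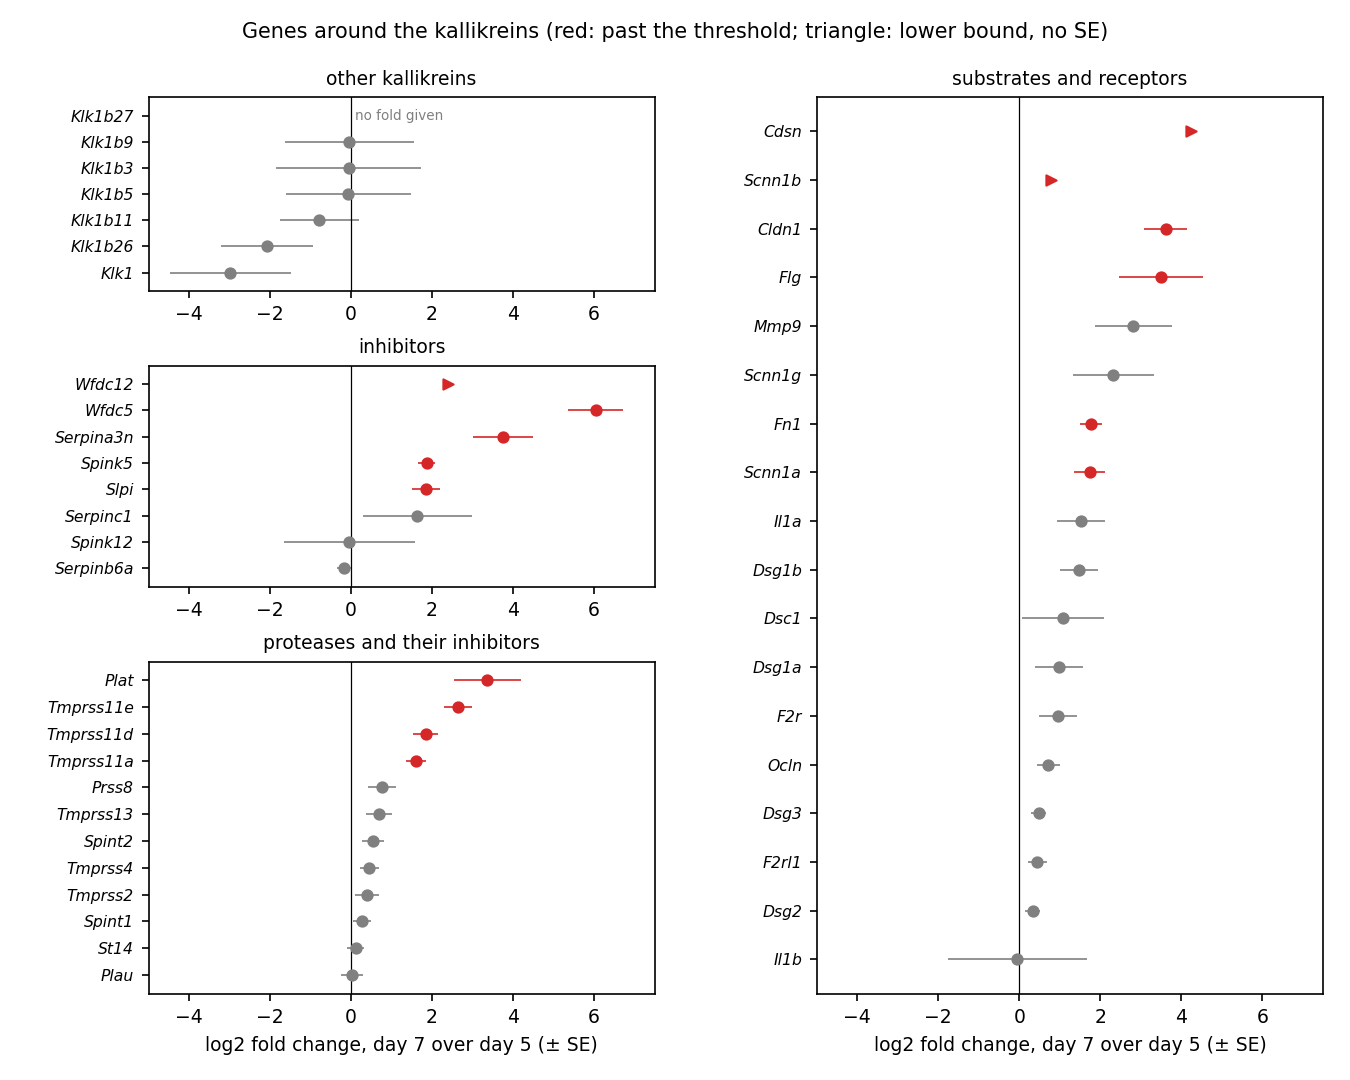
Log2 fold change of day 7 over day 5 with its SE from the edgeR fit, for each tested gene of 4 lists around the kallikreins; red marks genes past the threshold and triangles mark the lower bound of genes with 0 counts at day 5. None of 7 other kallikreins, 5 of 8 inhibitors, 4 of 12 proteases and their inhibitors and 6 of 18 substrates and receptors are red.

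The genes whose level over the 6 libraries was most like the summed kallikreins, out of 9627 whose mean reached 5 CPM, were *Defb1*, *Lce3b*, *Lce3e*, *Aktip* and *Cnfn*. Likeness was Pearson's r of log2(CPM + 1) and ran from 0.9986 to 0.9998. The 6 points fall into the 2 days, so r mostly reflects the difference between them. *Defb1*, a beta-defensin gene, was at 57.7, 59.7 and 64.1 CPM and then 248, 367 and 216 CPM. *Cnfn*, the cornifelin gene, was at 0.41, 0.50 and 0.72 CPM and then 66.7, 166 and 33.3 CPM. *Aktip* shared the order of the libraries but not the size, at 19.2 CPM at day 5 and 28.8 at day 7, and it did not make the threshold (edgeR adjusted p = 0.123).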

How the data were processed

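The deposited files hold whole-number read counts per Ensembl gene ID, 1 file per library. The authors made them from Lexogen QuantSeq 3′ reads aligned to GRCm39. The aligner, the annotation release and the strand setting are not given in the sources used here. Names and coordinates came from GENCODE vM39 by exact ID (91.2% of 47643 IDs). The 5 entries that name no gene were left out. The 15792 genes with 1 count or more in 2 or more libraries were compared between the days with edgeR 4.0.16 (R 4.3.3, TMM scaling, quasi-likelihood F test, two-sided), and p-values were adjusted over all of them by Benjamini-Hochberg. The threshold was an adjusted p under 0.05 with an absolute log2 fold change over 0.6. SEs were derived from the fold change and the F statistic. Levels of 0 were bounded at 3 counts per library, a set limit with no stated confidence, and folds given as at least rest on it. Ratios with 1 to 5 counts at day 5 have exact conditional binomial intervals. The sources name no molecular identifiers, so intervals and limits cover counting error only. The fit was tested on simulated data.

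The titles and design description tie same-numbered libraries to 1 mouse. Their deviations from the day means correlated at 0.14, -0.10 and 0.16 over 8172 genes. The kallikreins, the gene lists and the motifs were chosen with earlier results of these data known. All 10 members are named. From each list the text names up to 5 genes past the threshold by smallest p and the 3 most abundant others, besides the genes beside the cluster and the 5 closest in pattern. *Flg*, *Dsg1b*, *Scnn1g*, *Vsig10l*, marker genes and genes at 0 were named after their values were seen. Alternatives were other scalings (DESeq2 size factors, upper quartile, library totals), no filter, filterByExpr, a mean count of 10, mouse as a block, robust = TRUE, DESeq2 1.42.0 and leaving out each library.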

Additional observations from a re-analysis of the deposited data

How the results depend on the processing

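The ratio of summed kallikrein CPM, 3.14 on the log2 scale, stayed between 3.06 and 3.14 under other scalings and filters, was 3.07 with mouse as a block and 2.78 to 3.33 without single libraries; robust = TRUE and DESeq2's test do not alter it. The count of all genes past the threshold was 1901, 2340 with the mouse block, 1421 by DESeq2 and 797 to 2576 without single libraries (892, 797 and 890 without day 5 mice 1, 2 and 3, and 1045 without day 7 mouse 2). It split into 1140 higher and 761 lower, but 950 and 1008 on library totals and 1032 and 841 with the upper quartile. Inhibitors past the threshold numbered 5, 3 with filterByExpr, and 5 without any single library. Substrates and receptors numbered 6, with a range of 4 to 11 without single libraries, the highest without day 7 mouse 3. Activating proteases numbered 4, with a range of 3 to 6. Other kallikreins numbered 0 in all settings run except no filter, which gave 1, and had no tested gene under filterByExpr or the minimum mean count of 10. The mouse block changed the calls of *Klk11*, *Flg* and *Dsg1b*, and no other call in these lists. Fitted log2 fold changes of *Klk7* (7.81 without day 5 mouse 2), *Klk11* (5.26 without day 5 mouse 3) and *Klk13* (7.90 without day 5 mouse 1) moved because they rest on 1 to 4 day 5 reads. Depth limits all values near 1 CPM. The cause of other changes was not tested.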

Other observations

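*Klk8* alone had other genes of closest pattern than the summed kallikreins. Over the 6 libraries, by Pearson's r of log2(CPM + 1), these were *Sparc*, *Cox14*, *Cnppd1*, *Lgals3bp* and *Ly6a* (r from 0.9959 to 0.9993, chosen after the values were seen). *Sparc*, a matricellular glycoprotein gene, was at 60.6, 58.2 and 73.5 CPM at day 5 and 311, 366 and 542 CPM at day 7, highest in mouse 3 at both days, as *Klk8* was. *Lgals3bp*, which encodes a secreted galectin ligand, was at 7.01, 7.03 and 9.73 CPM and then 23.8, 25.3 and 35.2 CPM. *Ly6a*, the gene of the surface protein Sca-1, was at 824, 824 and 826 CPM and then 1192, 1268 and 1376 CPM.

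Without *Klk8*, the closest in pattern to the other members' sum were *Rnft1*, *N4bp2l1*, *Lce3b*, *Lce3c* and *Pxk* (r from 0.9975 to 0.9995). The closest, *Rnft1*, was at 30.4 CPM at day 5 and 42.9 CPM at day 7 and did not make the threshold (edgeR adjusted p = 0.146). *Pxk* was at 32.8 CPM and then 60.2 CPM. *Lce3b*, a late cornified envelope gene, was among the closest 5 with and without *Klk8*. It had 0 counts at day 5 and 16.9, 32.3 and 12.2 CPM at day 7.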
